A study of Homo sapiens with 6 samples.

Results

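The multidrug efflux transporters of the ATP-binding cassette (ABC) family were examined in 786-O cells, a human clear cell renal carcinoma line, with and without adaptation to copper. The members were 8 genes taken by symbol from the deposited table of 25987 genes with a symbol: ABCC1, ABCC2, ABCC3, ABCC4, ABCC5, ABCC10, ABCB1 and ABCG2. All 8 were present and all 8 passed the filter on low counts, which 12944 genes passed in all. The copper group was 3 cultures of wild-type 786-O cells kept in medium whose serum had first been loaded with copper sulfate, and the control group was 3 cultures given serum handled the same way without copper. The dose is 30 uM in the series text, whereas the sample labels give 30 uM for copper replicate 1, 31 uM for replicate 2 and 32 uM for replicate 3. The labels do not say whether the cultures were adapted separately, so p-values measure only the spread between these samples.

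ABC exporters are membrane pumps that use ATP hydrolysis to move substrates out of the cell. The ABCC members are called multidrug resistance proteins and carry mainly organic anions, many of them drugs or metabolites that have been joined to glutathione, glucuronate or sulfate inside the cell. ABCB1, or P-glycoprotein, carries bulky hydrophobic compounds, and ABCG2, the breast cancer resistance protein, works as a dimer and carries urate, sulfate conjugates and many drugs. In the kidney such pumps work in the proximal tubule, from which clear cell carcinoma arises, and P-glycoprotein has long been studied in the poor response of this cancer to chemotherapy. Several of the ABCC genes and ABCG2 are known targets of NRF2, the transcription factor that responds to oxidants and electrophiles.

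Total counts were 16301772 to 18189469 in the copper libraries and 19219090 to 25079913 in the control libraries. Replicate 3 of both groups stood apart from replicates 1 and 2 on the first principal component, which carried 57.9% of the variance. Copper replicate 3 lay further out, at 41.2, than control replicate 3, at 17.6. Values are therefore given by replicate number. The renal and 786-O markers summed to 4484 to 5409 CPM (counts scaled to library size) in copper and 4858 to 5108 CPM in control. Of these 9 genes 8 were well detected, and CA9 was at 0 to 2 counts per library. VIM made up most of each sum, at 2763 to 3788 CPM in copper and 2891 to 3283 CPM in control. The 8 markers of leukocytes, endothelium, distal tubule and liver summed to 0.755 to 1.34 CPM in copper and 0.539 to 0.891 CPM in control. Of 2 metallothionein genes taken as a check of the treatment, MT2A was at 343 ± 12.8 CPM in control and 719 ± 85.9 CPM in copper (SD, n = 3), and MT1X at 9.82 ± 3.31 and 39.9 ± 5.87 CPM. The groups did not overlap for either, beside 10.8% of all genes. By edgeR's quasi-likelihood test neither was called at an adjusted p under 0.05, with 0.08428 for MT2A and 0.1002 for MT1X. That test therefore left uncalled log2 differences of 1.07 for MT2A and 2.01 for MT1X. With replicate number as a block in the edgeR fit both were called, at adjusted p-values of 0.005162 for MT2A and 0.002364 for MT1X.

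Sequence just upstream of the start could be matched in RefSeq (GRCh38.p14) for 6 of the 8 genes, ABCC2, ABCC4, ABCC5, ABCC10, ABCB1 and ABCG2. For each gene only the RefSeq start nearest to the deposited one was used. There were 5 starts listed for ABCG2 and 2 each for ABCB1 and ABCC10, and their other starts were not searched. The 250 bases before the start used were searched on both strands. The letters sought were the antioxidant response element core (TGACNNNGC), the cores of the metal response element (TGCACNC and TGCGCNC) and the hypoxia response element core (ACGTG). None of these overlapped another in the windows shown. Of 35116 promoters of the same length, 10.9% held the antioxidant core, 9.87% and 16.8% the metal cores and 18.5% the hypoxia core. The 3 windows that held a match are printed because they are the only ones among the 6 that did. They belong to ABCC2, ABCC4 and ABCG2, and capitals mark the matched letters. The share of all promoters holding any of these cores was not counted. No link between a match and the copper comparison was tested. ABCC2 lies at chr10:99782390-99782639 on the plus strand, with TGCACNC at position -125 from the start. ABCC4 lies at chr13:95301452-95301701 on the minus strand, with the reverse complements of TGACNNNGC at -149 and of TGCGCNC at -111. ABCG2 lies at chr4:88159324-88159540 on the minus strand, with the reverse complement of TGCGCNC at -79 from the RefSeq start nearest to the deposited one. The 33 bases nearest that start fall inside the deposited gene and are not printed. A match describes letters only and shows no binding. For ABCB1 and ABCC10 the lack of a match covers only the window searched.
ABCC2: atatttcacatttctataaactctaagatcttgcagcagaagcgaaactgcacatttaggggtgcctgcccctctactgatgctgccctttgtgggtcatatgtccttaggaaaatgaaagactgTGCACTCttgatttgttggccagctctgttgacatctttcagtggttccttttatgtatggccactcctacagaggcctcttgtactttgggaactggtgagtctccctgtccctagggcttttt
ABCC4: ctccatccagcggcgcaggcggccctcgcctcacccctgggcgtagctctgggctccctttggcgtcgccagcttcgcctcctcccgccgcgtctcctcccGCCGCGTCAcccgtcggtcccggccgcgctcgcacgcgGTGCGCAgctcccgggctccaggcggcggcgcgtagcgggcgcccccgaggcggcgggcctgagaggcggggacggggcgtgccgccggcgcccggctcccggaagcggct
ABCG2: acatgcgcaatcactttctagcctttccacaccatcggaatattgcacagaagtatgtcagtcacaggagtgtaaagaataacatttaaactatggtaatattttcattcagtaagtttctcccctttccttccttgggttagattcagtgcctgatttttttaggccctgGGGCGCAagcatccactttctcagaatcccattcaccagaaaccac

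No member differed between copper and control by edgeR's quasi-likelihood test at an adjusted p under 0.05 over all genes (0 of 8), and the background was 0% of 12944 genes. At an unadjusted p under 0.05 there was 1 member, ABCG2, beside 3.52% of all genes. DESeq2 and limma-voom also called 0 of the 8. With replicate number as a block in the fit, 0 of 8 members were called beside 0.17% of all genes (22 genes). At an unadjusted p under 0.05 the blocked fit had 3 of the 8, ABCG2, ABCC3 and ABCC2, beside 8.41% of all genes. All 3 were higher in copper, beside 4.16% of all genes in that direction, and 0 of 8 were lower, beside 4.24%. The groups did not overlap for 1 of 8 members, against 10.8% of all genes. Copper was above control at all 3 replicate numbers for 2 of 8 members, against 17.7% of all genes, and below it for 0 of 8, against 17% of all genes. The median log2 fold change was 0.13 for the 8 members and 0.01 for all tested genes, with 5 of 8 members and 51.4% of all genes above 0.

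ABCG2 was the member with the largest difference and the one without overlap. The gene (Entrez 9429) lies at chr4:88090264-88159323 on the minus strand, in the deposited coordinates. Its level was 4.82, 4.32 and 2.32 CPM in copper replicates 1, 2 and 3 and 2.21, 2.21 and 1.47 CPM in control replicates 1, 2 and 3. Every copper library lay above every control library, but copper replicate 3 only just, at 2.32 against 2.21 CPM. The means were 3.82 ± 1.32 CPM in copper and 1.96 ± 0.43 CPM in control (SD, n = 3), a fitted 1.89-fold difference with a log2 fold change of 0.92 (SE 0.32). The difference did not pass edgeR's test, at an adjusted p of 1.00, nor the blocked one, at 0.147. Within replicate numbers 1, 2 and 3 the log2 difference was 1.09, 0.94 and 0.63. These values rest on 43 to 79 counts per copper library and 28 to 55 per control library.

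ABCC3, or MRP3, exports glucuronide conjugates across the basolateral membrane. The gene (Entrez 8714) lies at chr17:50634881-50667927 on the plus strand. Its level was 42.5, 48.0 and 65.8 CPM in copper replicates 1, 2 and 3 and 32.4, 37.3 and 49.1 CPM in the control replicates of the same numbers. The groups overlapped, because control replicate 3 was above copper replicates 1 and 2. Within numbers the copper library was higher each time and by a near-equal amount, 0.39, 0.36 and 0.42 on the log2 scale. The means were 52.1 ± 12.1 CPM in copper and 39.6 ± 8.60 CPM in control (SD, n = 3), and the log2 fold change was 0.40 (SE 0.21). Adjusted p-values by edgeR were 1.00 in the unblocked fit and 0.189 in the blocked fit.

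ABCC2, or MRP2, is the apical counterpart of ABCC3 and exports glutathione and glucuronide conjugates into bile and urine. The gene (Entrez 1244) lies at chr10:99782640-99852594 on the plus strand. Its level was 2.26, 4.32 and 4.21 CPM in copper and 2.29, 2.60 and 2.57 CPM in control. Copper replicates 2 and 3 were above all controls, while copper replicate 1 was the lowest of the 6 libraries. Its fitted log2 difference was 0.52 (SE 0.27), for which edgeR's adjusted p was 1.00, or 0.573 in the blocked fit. The differences within numbers were -0.02, 0.71 and 0.69. The gene had 37 to 78 counts per library.

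**Figure D1:**
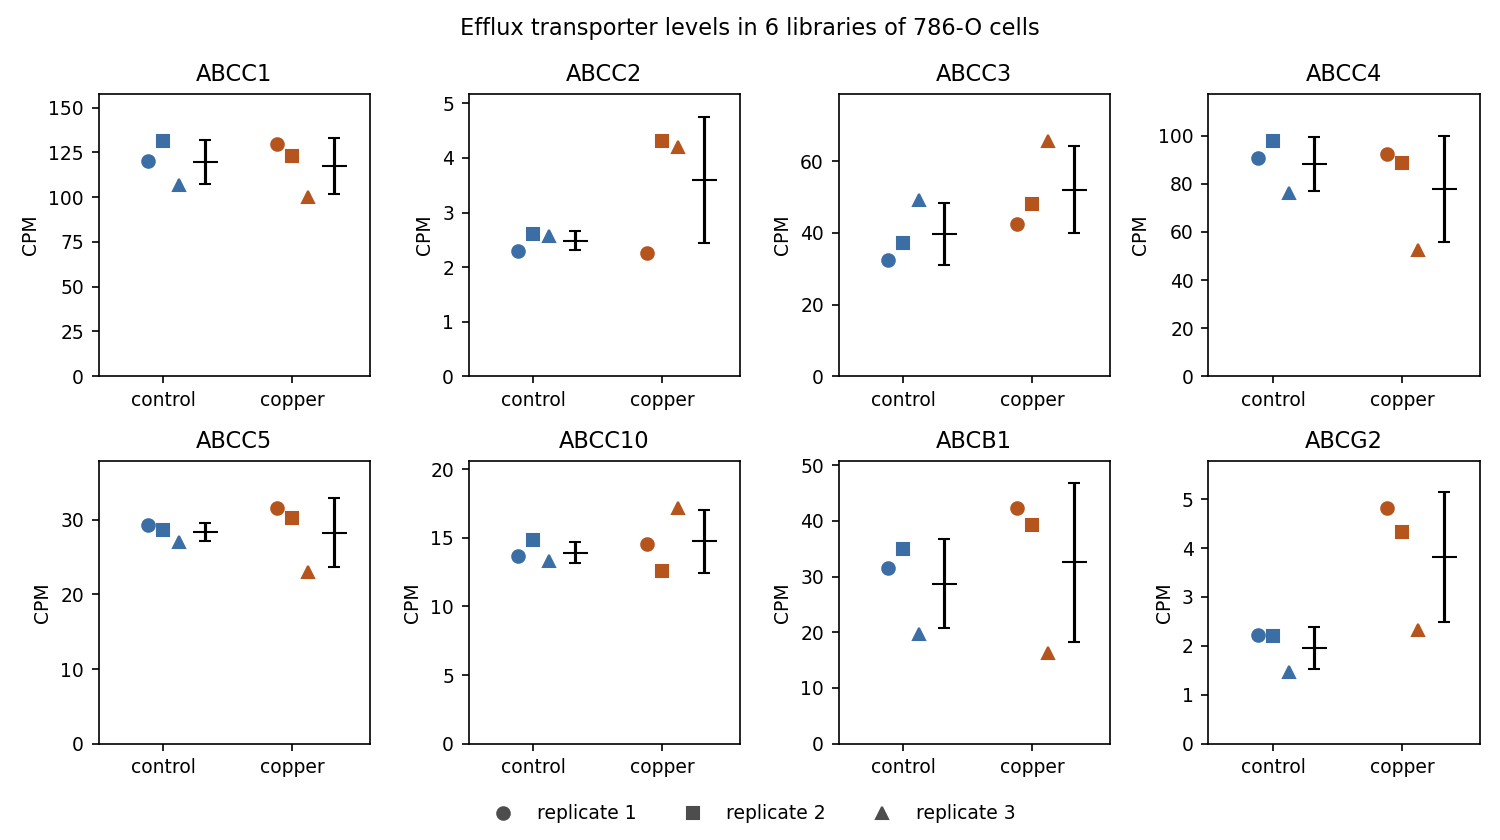
CPM of each transporter (vertical axis, linear from 0) in control and copper libraries, with symbols for the replicate number and the mean ± SD of 3 libraries beside each group. ABCG2 is the one gene without overlap between groups. The triangles of replicate 3 lie lowest in both groups for ABCB1, ABCC4, ABCG2, ABCC1 and ABCC5 and highest for ABCC3.

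The remaining 5 members had fitted log2 fold changes between -0.18 and 0.18, and their groups overlapped. ABCC1, or MRP1, exports glutathione conjugates, oxidised glutathione and leukotriene C4. The gene (Entrez 4363) lies at chr16:15949616-16143053 on the plus strand, and its level was 130, 123 and 99.9 CPM in copper and 120, 132 and 107 CPM in control. Its means were close, 118 ± 15.6 and 120 ± 12.3 CPM (SD, n = 3). Its log2 fold change was -0.02 (SE 0.13), with a 95% interval from -0.33 to 0.28.

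ABCC4 and ABCC5, or MRP4 and MRP5, export cyclic nucleotides, and ABCC4 also urate and prostaglandins. ABCC4 (Entrez 10257; chr13:95019835-95301451, minus strand) was at 92.4, 88.8 and 52.6 CPM in copper and 90.6, 98.0 and 76.1 CPM in control. The low copper mean came from replicate 3. Its log2 fold change was -0.18 (SE 0.22), with a 95% interval from -0.68 to 0.32, and without copper replicate 3 it was 0.04. ABCC5 (Entrez 10057; chr3:183983753-184017884, minus strand) was at 31.6, 30.2 and 23.0 CPM in copper and 29.4, 28.6 and 27.0 CPM in control. Copper replicates 1 and 2 were the highest of the 6 libraries and copper replicate 3 the lowest. Its log2 fold change was -0.01 (SE 0.14), with a 95% interval from -0.32 to 0.31.

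ABCC10, or MRP7, exports lipophilic drugs such as taxanes. The gene (Entrez 89845; chr6:43427863-43450427, plus strand) was at 14.5, 12.6 and 17.2 CPM in copper and 13.6, 14.8 and 13.3 CPM in control. Copper held both the highest and the lowest library, and the log2 fold change was 0.08 (SE 0.14, 95% interval -0.25 to 0.42). DLK2, on the other strand, overlaps ABCC10 and had 77 counts over the 6 libraries against 1675. ABCB1 (Entrez 5243; chr7:87503017-87600884, minus strand) was at 42.3, 39.2 and 16.2 CPM in copper and 31.5, 35.0 and 19.8 CPM in control. Copper was above control in replicates 1 and 2 and below it in replicate 3, by 0.42, 0.17 and -0.28 on the log2 scale. Its log2 fold change was 0.18 (SE 0.36), and the 95% interval ran from -0.66 to 1.02, the widest of the 8.

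**Figure D2:**
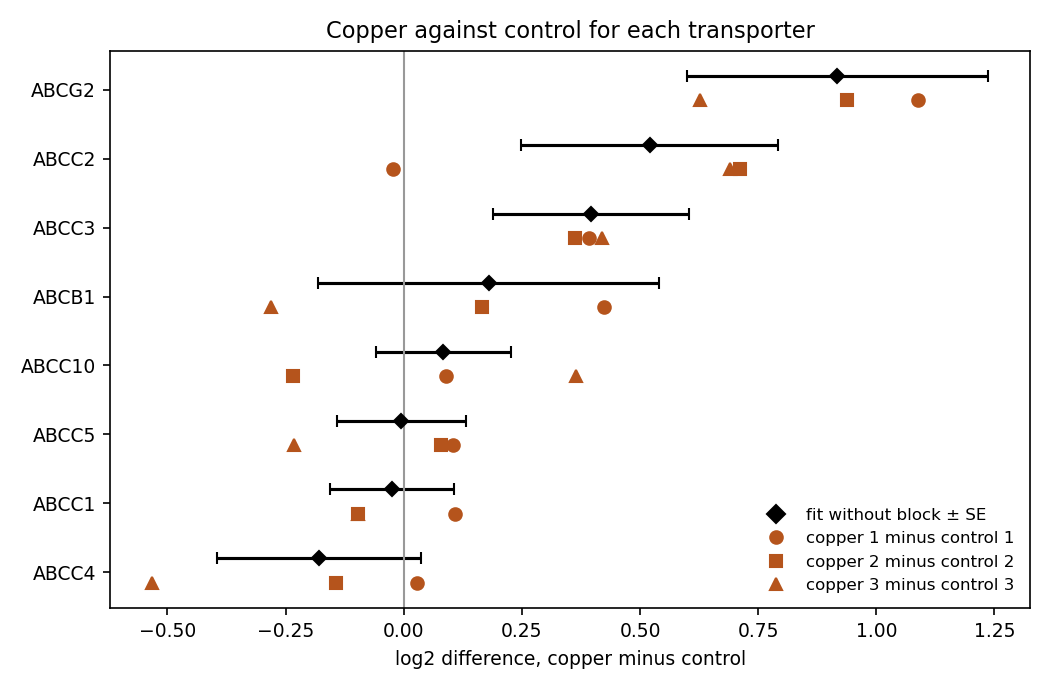
Log2 difference between copper and control (horizontal axis) for each transporter, with the fit without a block and its SE as diamonds and the difference within each replicate number as coloured symbols. ABCG2 and ABCC3 lie above 0 at all 3 numbers, and for ABCC1 the symbols of numbers 2 and 3 coincide near -0.10.

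For 6 of the 8 members, all but ABCG2 and ABCC2, the difference of replicate 3 from replicates 1 and 2 was larger than that of copper from control. Replicate 3 was singled out because it stood apart over all genes. On the first principal component copper replicate 3 lay further out, at 41.2, than control replicate 3, at 17.6. A fit with group and replicate 3 as terms takes the shift of replicate 3 as equal in both groups, so its shifts are averages. Whether the shift was equal for each member was not tested. In that fit edgeR called 5 of 8 members between replicate 3 and the others, beside 29.6% of all genes. Of these, 4 were lower in replicate 3 (beside 14.3% of all genes) and 1 was higher (beside 15.3%). ABCB1 was lower by 1.02 on the log2 scale (log2 difference -1.02, SE 0.13, adjusted p 0.00129), the largest shift of the 8. ABCG2 had -0.79 (adjusted p 0.0156), ABCC4 had -0.54 (0.00813) and ABCC1 had -0.29 (0.0281). ABCC3 was the one called higher, by 0.52 (SE 0.09, adjusted p 0.00435). ABCC2, ABCC5 and ABCC10 were not called, with 0.21, -0.26 and 0.13. Beyond the 32 uM given for copper replicate 3, the labels do not say what replicate 3 differs in. In the copper group the labelled dose and the replicate number cannot be told apart. The part of replicate 3 in the copper comparison is shown only by the values with and without it.

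With replicate 3 left out of both groups, ABCG2 passed the test. With copper replicate 3 alone left out it did not (log2 fold change 1.17, adjusted p 0.167 by edgeR). In replicates 1 and 2 of both groups, edgeR called ABCG2 alone of the 8 (log2 fold change 1.01, adjusted p 0.0367), beside 0.856% of all genes. With the block and without replicate 3, it called ABCG2 (1.02, adjusted p 0.00223), ABCC3 (0.38, 0.00110) and ABCB1 (0.30, 0.0171), beside 7.03% of all genes. That fit has 4 libraries and 1 residual degree of freedom per gene. The blocked fit called 0 of 8 without replicate 1, beside 0.568% of all genes, and 0 of 8 without replicate 2, beside 0.589%. With a term for replicate 3 in all 6 libraries the adjusted p was 0.0709 for ABCG2 and 0.144 for ABCC3.

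**Figure D3:**
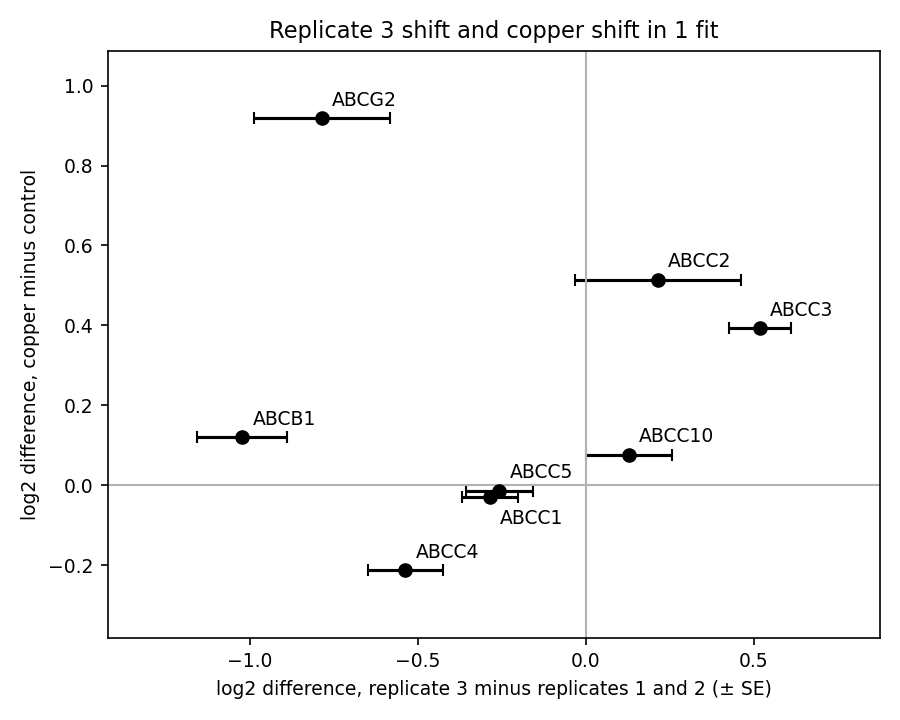
Log2 difference between replicate 3 and replicates 1 and 2 (horizontal axis, ± SE) against the log2 difference between copper and control (vertical axis) for each transporter, from 1 fit over 6 libraries. ABCB1 lies far left at -1.02 with a copper difference of 0.12, and ABCG2 is at -0.79 with 0.92.

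Compared per length, ABCC1 was the most abundant of the 8 transcripts and ABCC2 and ABCG2 the least. CPM was divided by the length of the longest GENCODE 29 coding transcript, 4479 bases for ABCG2 to 6594 for ABCC1. Some deposited gene spans were shorter than in RefSeq. The deposited start minus the RefSeq start was 63819 bases for ABCC5. The end differed by -24326 bases for ABCC3, -112411 for ABCB1 and -72303 for ABCG2. Whether the counted span covers the transcript used was not checked, so the levels and ranks of these genes are uncertain. In control the levels were 18.1 ± 1.87 CPM per kilobase for ABCC1, 15.1 ± 1.90 for ABCC4, 6.93 ± 1.51 for ABCC3 and 6.01 ± 1.67 for ABCB1 (SD, n = 3). They were 4.79 ± 0.20 for ABCC5, 2.74 ± 0.15 for ABCC10, 0.44 ± 0.10 for ABCG2 and 0.43 ± 0.03 for ABCC2. The order of the means was the same in copper, with 17.8 ± 2.37 CPM per kilobase for ABCC1, 13.3 ± 3.76 for ABCC4, 9.12 ± 2.12 for ABCC3 and 6.82 ± 2.98 for ABCB1. The last 4 were ABCC5 at 4.77 ± 0.78, ABCC10 at 2.90 ± 0.45, ABCG2 at 0.85 ± 0.29 and ABCC2 at 0.62 ± 0.20 CPM per kilobase. ABCC1 ranked highest and ABCC10 ranked 6 of 8 in all 6 libraries. The neighbours ABCC1 and ABCC4, ABCC3 and ABCB1, ABCB1 and ABCC5, and ABCG2 and ABCC2 overlapped between libraries within each group, and ABCC4 and ABCC3 overlapped in copper but not in control. The ranks of ABCC3 and ABCB1 changed with replicate 3, where ABCB1 was at rank 5 in both groups, against rank 3 or 4 in the other 4 libraries.

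**Figure D4:**
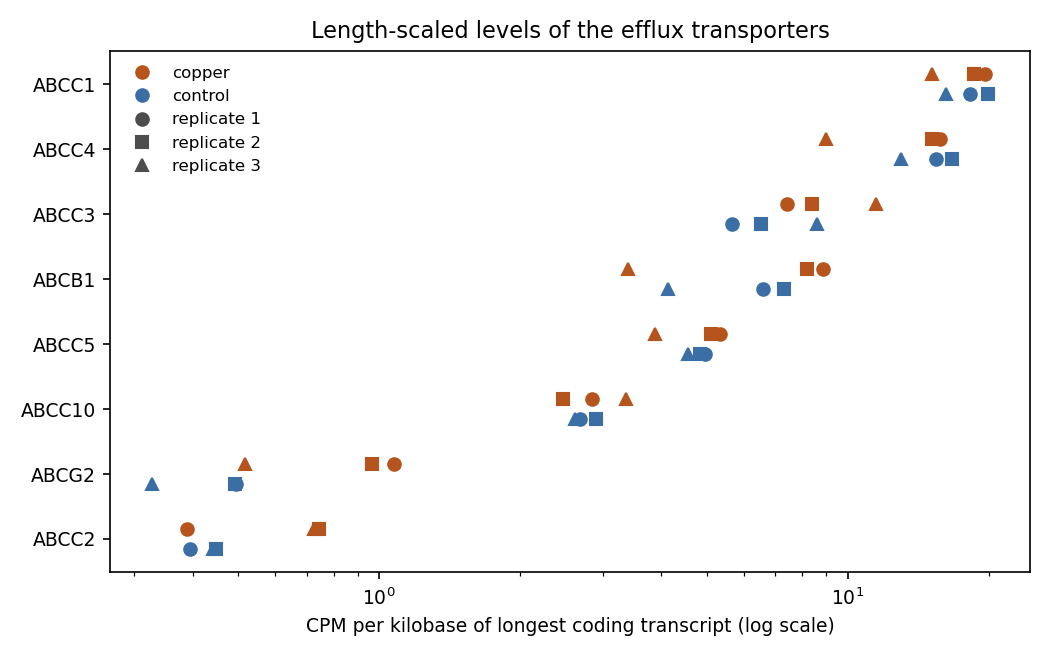
Level of each transporter as CPM per kilobase of the longest coding transcript (horizontal log axis) in the 6 libraries, coloured by group with symbols for the replicate number. ABCC1 is highest in every library, and ABCG2 and ABCC2 lie near or below 1.

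The other ABC genes were taken as a comparison. Of 40 such genes, 21 passed the filter and 0 were called by edgeR with or without the block, or by DESeq2. At an unadjusted p under 0.05 there were 0 by edgeR, beside 3.52% of all genes, and 2 in the blocked fit, beside 8.41%. The median log2 fold change of the 21 was 0.02, with 13 of 21 above 0, and the range was -0.19 to 0.60. The 3 with the smallest p were ABCA3, which packs surfactant lipids (0.26, SE 0.12), ABCC6, an exporter tied to ATP release and soft-tissue calcification (0.60, SE 0.34), and TAP2, a unit of the antigen peptide transporter (0.19, SE 0.12). ABCC6 was at 0.653 ± 0.15 CPM in control, and it has pseudogene copies, so its count is uncertain. Groups overlapped for all 21, whereas 10.8% of all genes had groups without overlap. No difference between the efflux transporters and the other ABC genes was tested.

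**Figure D5:**
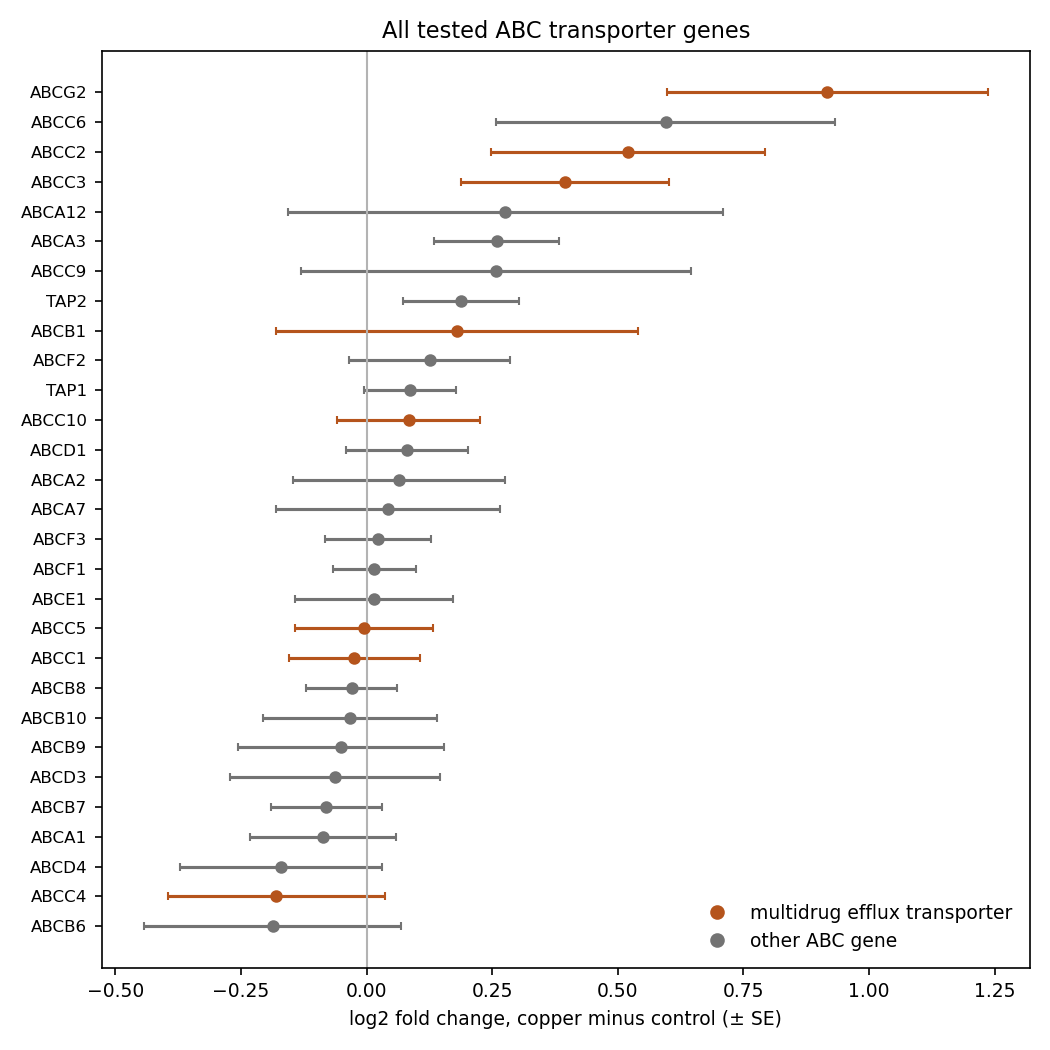
Log2 fold change between copper and control with its SE (horizontal axis) for the 8 efflux transporters and the 21 other tested ABC genes, sorted by value. ABCG2 is at the top at 0.92 and ABCB6 at the bottom at -0.19, and 0 of the 29 genes passed the test.

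Enzymes that make the conjugates carried by the ABCC pumps were mostly above 0. Of 19 tested genes of glutathione metabolism, glutathione transfer and glucuronidation, 18 were above 0 on the log2 scale, beside 51.4% of all genes. The median was 0.20, beside 0.01 for all genes. The list was written with earlier results of these data known, so the count above 0 is a description. The sulfotransferases on the list did not pass the filter. By edgeR 0 of 19 were called without the block, and limma-voom called 0. By edgeR 3 had an unadjusted p under 0.05, beside 3.52% of all genes. In the blocked fit 8 of 19 had an unadjusted p under 0.05, all higher in copper, beside 4.16% of all genes in that direction. MGST1, a membrane-bound glutathione transferase, was at 205, 233 and 256 CPM in copper and 143, 154 and 148 CPM in control, a log2 difference of 0.64 (SE 0.11). It was the 1 called gene of the list in edgeR's blocked fit, beside 0.17% of all genes. Its adjusted p was 0.0478 there, against 0.359 in edgeR's unblocked fit. DESeq2 called it in the unblocked fit, beside 0.209% of all genes. GSTM3, a cytosolic glutathione transferase, had 0.33 (SE 0.12) and GSS, which completes glutathione synthesis, 0.23 (SE 0.10), with adjusted p-values by edgeR of 0.518 and 0.548 in the blocked fit. GSTM3 belongs to a family of similar genes whose counts may be partly shared.

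Regulators of the transporters, and the proteins that anchor them at the membrane, showed small differences. Of 19 tested, 0 were called by edgeR with or without the block, DESeq2 called 0, and 7 were above 0 with a median of -0.07. By edgeR 0 had an unadjusted p under 0.05, beside 3.52% of all genes, and 1 in the blocked fit, beside 8.41%. NFE2L2, which encodes NRF2, had a log2 fold change of -0.01 (SE 0.11) and KEAP1, its inhibitor, 0.05 (SE 0.11), both named after their values were seen. The 3 with the smallest p were MAFG, a small partner of NRF2 on DNA (0.14, SE 0.08), ARNT, the partner of HIF and AHR (-0.20, SE 0.10), and PPARA, a lipid-sensing nuclear receptor (-0.22, SE 0.13). Groups did not overlap for 2 of the 19, MAFG and ARNT, near the 10.8% of all genes without overlap.

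The genes most like ABCG2 over the 6 libraries were sought among the 10291 that averaged 5 CPM or more. Likeness was the root mean square difference of log2 CPM after each gene was centred on its own mean. The 5 nearest were B3GALNT1, an enzyme of globoside synthesis (0.14), CACNA2D1, a calcium channel subunit (0.16), PCSK5, a proprotein convertase (0.17), MT1E, a metallothionein (0.20), and SLC7A2, a cationic amino acid transporter (0.22). B3GALNT1 was at 18.3, 18.4 and 11.3 CPM in copper and 9.69, 9.12 and 7.75 CPM in control, high in copper replicates 1 and 2 and low in replicate 3 of both groups, as ABCG2 was. Among the other members the nearest to ABCG2 was ABCB1 at 0.42, at rank 376 of 12943 genes, and the farthest was ABCC3 at 0.66. Many genes are near any pattern over only 6 libraries, and MT1E has near-identical family members, so its count is uncertain.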

How the data were processed

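RNA-seq counts of 6 cultures were analysed. The authors deposited 1 table of raw counts per gene. GRCh38, STAR, FastQC and edgeR are named in the submitters' processing notes, with no role. The counting program, its use of strand and its treatment of reads matching several genes are not given in the sources used here. Libraries were made with a directional kit, per the labels' protocols. Gene starts in the table count from 0 and were raised by 1. The 5 rows that lack a symbol, with 0.000814% of the counts, were dropped.

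Counts were fitted in R 4.3.3 with edgeR 4.0.16 (filterByExpr with minimum count 10 and minimum total 15, TMM scaling, robust quasi-likelihood test, group as the term), with Benjamini-Hochberg adjustment over all tested genes and calls under 0.05. A prior count of 2 entered the log2 fold changes, and CPM used TMM library sizes. Scripts were tested on simulated data. Alternatives included DESeq2 1.42.0, limma-voom (limma 3.58.1), other scalings and filters, a replicate block, a term for replicate 3, and left-out libraries. Within groups the lowest chi-square per degree of freedom between libraries was 5.04, where sampling noise gives 1, so each library was counted once.

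The labels number the replicates 1 to 3 in each group. Deviations from the group mean correlated across tested genes, which are not independent, at 0.46, 0.40 and 0.65 for same-numbered libraries, all above the 0.1 taken as pairing. Copper 1 with control 2 and copper 2 with control 1 were also above it, at 0.32 and 0.27. All pairs of replicate 3 with another number were below 0. The deviations of a group sum to 0 for each gene, so these values are tied to each other and are not separate evidence. The check parts replicate 3 from the others more than it pairs numbers 1 and 2. The members, lists and tests were chosen with earlier results of these data known. Named genes were the 8 members, the 3 genes of smallest p in each comparison list, the 2 metallothioneins of the treatment check and the 5 genes most like the member of smallest p.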

Additional observations from a re-analysis of the deposited data

How the results depend on the processing

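Over all genes 0 were called in the reported fit. The alternatives gave 12 calls if no gene was filtered out, 27 by DESeq2, 22 in the replicate block, also 22 in the block scaled by RLE, 58 in the block by DESeq2, 35 in the fit of a replicate 3 term and 111 from replicates 1 and 2. It was 0 to 15 with 1 library left out, with 15 only without copper replicate 3, and 74, 77 and 912 in the replicate block without replicate 1, 2 and 3. The count of called members was 1 in replicates 1 and 2 alone and 0 to 3 in the paired fits that left out 1 pair. It was 0 under the other alternatives. Over the 4 comparison lists 0 genes were called in the reported fit, 1 with DESeq2, 1 in each of the 3 fits with the replicate block on all libraries, 1 with the replicate 3 term and 2 from replicates 1 and 2. Leaving out libraries gave 0 to 2, and pairs 1 to 10. On all 6 libraries the block changed no call of a member. On replicates 1 and 2 it raised the count of called members from 1 to 3, adding ABCC3 and ABCB1.

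The median log2 fold change of the members, 0.13, was 0.15 with upper-quartile scaling, 0.16 with library totals, 0.11 with no filter, 0.082 with limma-voom, 0.096 in the replicate block, 0.094 in the block scaled by RLE, 0.092 in the block by DESeq2, 0.098 with the replicate 3 term and 0.19 in replicates 1 and 2 alone. It was 0.0071 to 0.19 with 1 pair left out of the block and 0.012 to 0.24 with 1 library left out. Without copper replicate 1 it was 0.019, without control replicate 3 it was 0.012 and without control replicate 2 it was 0.24. The scalings moved the median of all genes to at most 0.03.

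ABCG2, ABCC3 and ABCC2 kept their direction under all 23 alternatives, from 0.72 to 1.17, 0.19 to 0.58 and 0.36 to 0.76. The other 5 changed sign at values near 0. ABCC5 was at 0.014 with upper-quartile scaling and 0.021 with library totals, and ABCC1 at 0.0023 with library totals. In replicates 1 and 2 alone ABCC1 was at 0.0055, ABCC5 at 0.090 and ABCC10 at -0.071. In the replicate block without replicate 3 they were at 0.0062, 0.091 and -0.070, without replicate 1 ABCB1 was at -0.049, and without replicate 2 ABCC1 was at 0.0062. With 1 library left out, ABCB1 ranged from -0.055 (without copper replicate 1) to 0.50, and was at -0.029 without control replicate 3. ABCC1 ranged from -0.10 to 0.079, ABCC4 from -0.32 to 0.037, ABCC5 from -0.094 to 0.12 and ABCC10 from -0.042 to 0.18, each passing 0 without copper replicate 3. ABCC1 was at 0.049 and ABCC5 at 0.0020 without control replicate 2, and ABCC5 at 0.016 without control replicate 1. The cause was not tested. Of the results on other named genes, 376 kept direction and call, 61 became called and 0 reversed. ABCG2 and ABCC2 had 28 to 79 counts per library, which limits the precision of their values.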

Other observations

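Carriers of the solute carrier family that take up or exchange drugs and organic anions were looked at beside the efflux pumps. Of 30 listed genes, 29 were in the table and 13 passed the filter, with 8 above 0 and a median log2 fold change of 0.21. By edgeR 0 were called with or without the block, and DESeq2 called 0. At an unadjusted p under 0.05 there was 1 by edgeR, beside 3.52% of all genes, and 3 in the blocked fit, beside 8.41%. SLCO2B1, an uptake carrier for organic anions, was low, at 0.853, 0.897 and 1.40 CPM in copper and 0.483, 0.294 and 0.576 CPM in control, with a log2 fold change of 1.07 (SE 0.36) and an adjusted p by edgeR of 0.336 in the blocked fit. SLC15A2, which takes up small peptides and peptide-like drugs, was at 1.04, 1.29 and 1.40 CPM in copper and 1.49, 1.76 and 2.93 CPM in control, with a log2 fold change of -0.67 (SE 0.32). Groups did not overlap for either, and for 3 of the 13 tested carriers in all, beside 10.8% of all genes. SLC22A5, the carnitine carrier, had 0.21 (SE 0.12).

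The ABC genes that did not pass the filter, the P-glycoprotein relative ABCB4 among them, had low counts in each library, and no comparison was made.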
